A study of Homo sapiens with 6 samples.

Results

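hAT elements are DNA transposons, and the 40645 hAT loci described here were all transposable element (TE) loci that the deposited tables place in the class DNA and in a family whose name starts with hAT, with an entry in at least 1 of 6 libraries. They were 40645 of 723309 listed LTR, LINE, SINE and DNA loci, and 40645 of 62771 DNA transposon loci. Of these, 20480 had fragments on their own strand, meaning RNA that reads along the annotated strand of the element. The libraries held polyadenylated RNA of SW480, an established human colon adenocarcinoma line. Cells of both groups were transduced with lentivirus, carried a construct under the CMV promoter and were kept under puromycin. The Clover group expressed the fluorescent protein Clover as control (n = 3), and the Z18trunc group expressed a truncated ZC3H18 (n = 3), with lines made in triplicate per the study's methods, which describe no edit of the endogenous ZC3H18 gene in these lines.

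hAT transposons move by cut and paste. A transposase with a nuclease fold related to RNase H binds short inverted repeats at both ends of the element, cuts it out and inserts it elsewhere, where repair leaves a short direct duplication of the target on each side. Human hAT elements no longer move, and most are short internal deletion copies, named MER after "medium reiteration", that never coded for transposase. Several hAT transposase genes were taken over by the host, among them the ZBED zinc finger genes. ZC3H18 links the nuclear cap-binding complex to adaptors of the RNA exosome, and the comparison asks whether its truncated form changes the level of RNA that contains these old elements.

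Traces of the insertion were counted at the element ends. Identical bases on both sides of the element, over 8 bases as hAT insertion leaves them, were found at 196 of 16885 hAT-Charlie loci with own-strand fragments and a readable window (1.16%), at 7 of 3433 loci of the other hAT families (0.204%) and at 4 of 10764 loci of TcMar, the other large group of human DNA transposons, which duplicates a shorter target (0.0372%). Of the 196 loci, 124 also started with CAG and ended with CTG. The letters TTCTCAA were searched in the outer 30 bases, reading inward from either end, and were present at 1979 hAT-Charlie loci (11.7%), against 14 other hAT loci (0.408%) and 93 TcMar loci (0.864%). Searched on the other strand of the same windows, they were present at 0.651% of hAT-Charlie loci, 0.495% of other hAT loci and 0.585% of TcMar loci. A start of CAG with an end of CTG was no more frequent in hAT-Charlie (6.19%) than in TcMar (6.68%), and a match describes letters in these windows only.

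Some hAT loci are coding, several of them in genes that took over transposase sequence. Short overlaps with coding exons count as well, such as an OldhAT1 copy of 78 bp in ATP5F1A. At 42 of the loci with own-strand fragments, short overlaps included, at least 80% of the bases were coding on the same strand. Among hAT loci of 500 bp or more, 9 were coding in this sense, and their longest stretch without a stop codon on the own strand had a median of 1614 bases and covered 82.1% to 99.9% of the element. In the other 978 the median was 205.5 bases and 28.4% of the element. The stretch ran into a stop codon inside the element at the 3′ end of several genes, and the last 60 bases of 4 of them are shown in hg38, 5′ to 3′, with the stop codon in capitals.
Charlie14a in ZBED5, chr11:10852863-10854628, minus strand: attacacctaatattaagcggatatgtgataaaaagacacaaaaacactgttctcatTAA
Charlie9 in FAM200A, chr7:99546658-99548304, minus strand: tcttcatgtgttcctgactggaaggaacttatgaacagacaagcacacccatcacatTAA
Charlie11 in FAM200C, chr5:160393515-160395702, minus strand: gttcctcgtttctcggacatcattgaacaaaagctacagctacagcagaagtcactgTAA
Zaphod2 in ZMYM5, chr13:19824454-19825295, minus strand: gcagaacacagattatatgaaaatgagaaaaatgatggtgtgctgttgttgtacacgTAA

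After the stop codon the annotated element went on for 1 base in ZBED5, 28 in FAM200A, 191 in FAM200C and 23 in ZMYM5. FAM200C is named ZBED8 in the deposited gene tables. The stop-free stretch was 1761 bases in ZBED5, 1614 in FAM200A, 1797 in FAM200C and 780 in ZMYM5. In ZMYM6 and in the OldhAT1 copies of ZBED4 and ZBED6 it covered 1338, 648 and 807 bases and met no stop codon in the element.

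hAT loci were short and old. Their median length was 171 bp, against 254 bp for TcMar, 376 bp for LTR, 316 bp for LINE and 289 bp for SINE loci. The median mismatch to the consensus, which grows with the time since insertion, was 22.9% for hAT loci, 17.9% for TcMar and 13.1% for SINE loci. LINE loci were the only older class by this measure, at 24.9%. Uniquely mapped fragments made up 74.5% to 77.0% of own-strand hAT fragments per library, and 72.7% at the 1581 loci with under 15% mismatch.

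The libraries held between 18226033 and 22463310 aligned fragments, of which between 24866 and 32807 lay on hAT loci on their own strand. Where no fragment was counted, 3 counts (0.134 to 0.165 counts per 1000000 aligned fragments, CPM) remain possible by counting error alone. ZC3H18 was at 58.4, 51.3 and 61.8 TPM in Clover and 752, 739 and 798 TPM in Z18trunc, a measure that includes the introduced RNA. Of 12 colon epithelium markers, 8 were at 1 TPM or more in every library and 4 (KRT20, CDX1, CEACAM5 and LGR5) were listed at 0. The immune marker PTPRC, the fibroblast marker DCN and the endothelial markers PECAM1 and CDH5 were listed at 0 in every library. The remaining endothelial marker, VWF, was at 0.229 to 0.503 TPM. Of 5 immune and 4 fibroblast markers, 1 each was at 1 TPM or more in every library, CD68 and COL1A1. The immune and fibroblast sums were 3.07 to 4.63 TPM and 1.17 to 1.55 TPM over both groups.

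hAT RNA was more abundant in Z18trunc than in Clover, with no overlap between libraries. Own-strand hAT loci held 1356, 1299.8 and 1278 CPM in Clover and 1435, 1489 and 1563 CPM in Z18trunc. The means were 1311 ± 40.1 CPM (SD, n = 3) and 1495.5 ± 63.9 CPM (SD, n = 3), a log2 difference of 0.19 (exact two-sided permutation p = 0.1, the smallest that 3 against 3 libraries allow). The opposite strand of the same loci, RNA that reads against the element, held 1341 ± 52.0 CPM (SD, n = 3) in Clover and 1530.0 ± 73.9 CPM (SD, n = 3) in Z18trunc, again a log2 difference of 0.19. The own strand held 49.4% of hAT fragments in both groups, a nearly even split. SINE loci had 50.2% in Clover and 49.6% in Z18trunc on their own strand, and LINE loci 47.0% and 47.2%. LTR loci had 59.2% in Clover and 58.7% in Z18trunc. In bulk RNA, fewer cells with a transcript and less of it per cell cannot be told apart.

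**Figure D1:**
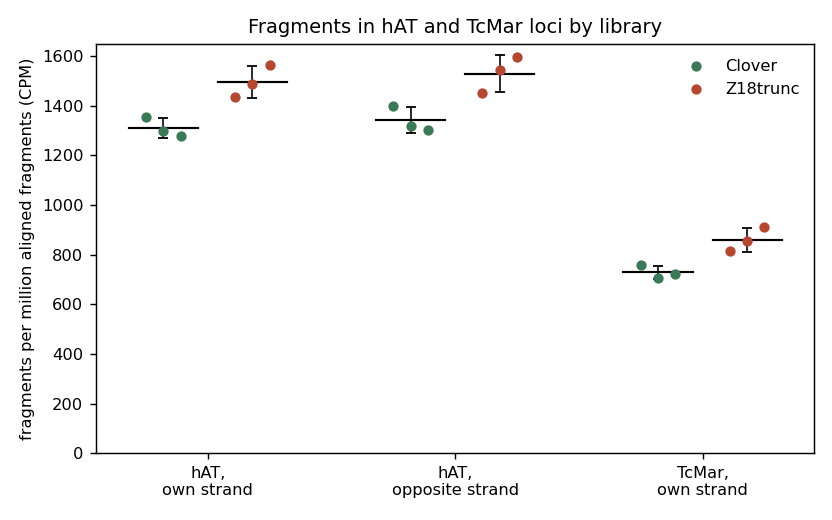
Fragments per 1000000 aligned fragments (y axis, CPM) in each library for hAT loci on their own and on the opposite strand and for TcMar loci on their own strand (x axis). Points are libraries, lines are means and bars are SD (n = 3). On both hAT strands, and likewise at TcMar loci, every Z18trunc library lies above every Clover library.

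Relative to other TE RNA, hAT RNA overlapped between groups. All other TE loci of the 4 classes held 22557 ± 648 CPM (SD, n = 3) in Clover and 25362 ± 1473 CPM (SD, n = 3) in Z18trunc. They too were higher in Z18trunc without overlap (log2 difference 0.17). The same held for LTR (0.21), LINE (0.24) and TcMar loci (0.24), while SINE loci overlapped (0.11). The log2 ratio of hAT to all other TE fragments was -4.06, -4.16 and -4.10 in Clover and -4.06, -4.08 and -4.11 in Z18trunc. The groups thus overlapped in this ratio (difference 0.02, exact permutation p = 0.7). hAT loci made up 5.50% ± 0.173 (SD, n = 3) of own-strand TE fragments in Clover and 5.57% ± 0.0803 (SD, n = 3) in Z18trunc. Set against TcMar alone, whose level was 729 ± 26.2 CPM (SD, n = 3) in Clover and 860 ± 48.2 CPM (SD, n = 3) in Z18trunc, the log2 ratio was 0.84, 0.88 and 0.82 in Clover and 0.82, 0.80 and 0.78 in Z18trunc. It was lower in every Z18trunc library by a small margin (difference -0.05, exact permutation p = 0.1, chosen after values were seen).

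Of the 8 hAT families, hAT-Charlie held most of the RNA, with 84.9% of own-strand hAT fragments from 34116 loci in 74 subfamilies. Its level was 1111 ± 38.3 CPM (SD, n = 3) in Clover and 1272 ± 56.6 CPM (SD, n = 3) in Z18trunc. hAT-Tip100 followed with 100.3 ± 3.79 and 110.4 ± 6.06 CPM, hAT-Blackjack with 41.9 ± 2.65 and 47.3 ± 2.29 CPM, and hAT-Ac, which here is the single old subfamily OldhAT1, with 40.3 ± 3.70 and 44.6 ± 1.94 CPM (SD, n = 3 each).

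The loci named simply hAT had 14.6 ± 0.446 CPM in Clover and 16.8 ± 0.806 CPM in Z18trunc (SD, n = 3 each). The uncertain assignments hAT-Tip100? and hAT? had 2.40 ± 0.440 and 3.08 ± 0.384 CPM, and 0.766 ± 0.308 and 0.851 ± 0.421 CPM, and hAT-Tag1 had 0.264 ± 0.216 and 0.284 ± 0.297 CPM (SD, n = 3 each). Libraries did not overlap in hAT, hAT-Blackjack, hAT-Charlie and hAT-Tip100, with log2 differences of 0.21, 0.18, 0.20 and 0.14. They overlapped in the other 4 families. No family passed the correction over 8 families (exact permutation p = 0.1, Benjamini-Hochberg adjusted p = 0.2 for the 4 without overlap).

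RNA over hAT loci came mostly from within genes. Of the fragments of both strands, 91.9% ± 0.0613 (SD, n = 3) in Clover and 91.8% ± 0.163 (SD, n = 3) in Z18trunc lay sense to a gene, in an exon or an intron. On the own strand, the 1105 loci placed in 3′ UTRs of GENCODE 44 genes held 644 ± 0.221 CPM (SD, n = 3) in Clover and 684 ± 5.97 CPM (SD, n = 3) in Z18trunc. The 14302 loci in introns held 383 ± 34.8 CPM in Clover and 486 ± 46.5 CPM in Z18trunc (SD, n = 3 each). Intronic loci were the most numerous, while 3′ UTR loci held the most RNA.

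The 1221 loci in noncoding exons held 110.5 ± 2.89 and 126 ± 5.36 CPM, the 93 in coding exons 65.4 ± 3.02 and 74.6 ± 2.47 CPM, and the 118 in 5′ UTRs 7.68 ± 0.832 and 9.11 ± 0.544 CPM. Outside genes, 2198 loci held 69.1 ± 4.03 and 78.0 ± 3.12 CPM, and 1443 loci inside a gene of the other strand only held 30.8 ± 0.842 and 37.6 ± 1.504 CPM (SD, n = 3 each, Clover then Z18trunc). In all 7 positions the Z18trunc libraries lay above the Clover libraries (exact permutation p = 0.1 each). The 7 sums come from the same 6 libraries and are not independent of each other. All other TE loci, summed over positions, were likewise higher in Z18trunc without overlap (log2 difference 0.17). Sums of other TE loci were not compared over these 7 positions, so whether the count is particular to hAT loci was not tested.

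**Figure D2:**
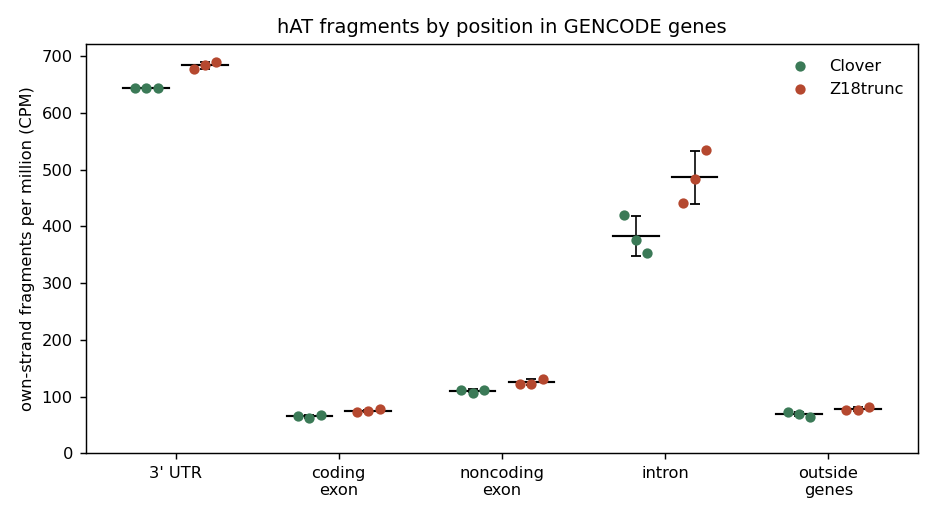
Own-strand hAT fragments per 1000000 (y axis, CPM) by position of the locus in GENCODE genes (x axis), for 5 of 7 positions. Points are libraries, lines are means and bars are SD (n = 3); introns have the widest gap between group means and also the widest spread between libraries.

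Introns showed a larger log2 difference (0.34) than exons (0.11, with 828 ± 4.90 and 894 ± 13.6 CPM, SD, n = 3 each). The log2 ratio of intronic to exonic hAT fragments was -0.98, -1.13 and -1.24 in Clover and -0.9999, -0.88 and -0.77 in Z18trunc. Clover replicate 1 overlapped the Z18trunc libraries, and the difference of 0.23 was within what exact permutation gives (p = 0.2). Other TE loci differed by 0.18 on the same ratio, and the difference between both was 0.06 (exact permutation p = 0.3). Clover replicate 1 and Z18trunc replicate 1 were the only libraries out of order, so leaving out either had to separate the groups and adds no support. The difference was 0.30 without Clover replicate 1 (exact permutation p = 0.1, the smallest possible for 2 against 3). Without Z18trunc replicate 1 it was 0.29 (exact permutation p = 0.2).

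Single loci carried little RNA each. In the libraries, 54.8% to 57.01% of detected hAT loci had at most 1 own-strand fragment, and the 20 most abundant loci held 15.9% ± 0.468 (SD, n = 3) of the fragments in Clover and 14.4% ± 0.911 (SD, n = 3) in Z18trunc. Only 727 hAT loci had the 30 counts over 6 libraries that a test required. edgeR's quasi-likelihood test called 2 of these 727 hAT loci at a Benjamini-Hochberg adjusted p under 0.05 (0.275%), against 0.201% of all 12453 TE loci tested.

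At an unadjusted p under 0.05, edgeR gave 65 hAT loci higher in Z18trunc (8.94%, against 8.17% of all TE loci) and 8 lower (1.1%, against 1.77%). Groups did not overlap at 93 hAT loci that were higher (12.8%, against 12.0% of all TE loci) and at 25 that were lower (3.44%, against 3.64%). The hAT shares were near those of all TE loci. The median log2 difference was 0.14 over tested hAT loci and 0.17 over all TE loci. Scaling by TMM, which centres all loci, moved the median of all loci to 0.00 and that of hAT loci to -0.03, and the unadjusted split became 24 hAT loci higher (3.3%, against 3.89% of all TE loci) and 33 lower (4.54%, against 4.57%). With scaling to opposite-strand fragments outside exons, the medians were -0.11 and -0.14, with 12 hAT loci higher (1.65%, against 2.38%) and 49 lower (6.74%, against 6.49%). Opposite-strand fragments of hAT loci are part of this reference. Those in introns were themselves higher in Z18trunc (425 ± 36.8 CPM in Clover and 533 ± 50.8 CPM in Z18trunc, SD, n = 3 each). A reference that is higher in Z18trunc lowers every log2 difference, so these counts do not describe RNA per aligned fragment.

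By position, 522 tested hAT loci in exons had a median log2 difference of 0.09, against 0.12 over all 6885 tested TE loci in exons. An unadjusted edgeR p under 0.05 was found for 47 higher (9%, against 7.1%) and 5 lower of them (0.958%, against 2.08%). The 154 in introns had a median of 0.34, against 0.29 over 3813 TE loci, and 121 of the 154 lay above 0, a count not made over all TE loci. Of the 154, 16 were higher (10.4%, against 9.83%) and 2 lower (1.3%, against 1.34%) by the same limit. The 40 outside genes had a median of 0.04, against 0.20 over 1053 TE loci, with 2 higher (5%, against 8.93%) and 1 lower (2.5%, against 1.71%). Whether hAT loci differed from other TE loci of the same position was not tested.

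The called locus with higher RNA in Z18trunc was a Charlie4z copy of 179 bp within the 3′ UTR that GENCODE gives for TUG1 (hg38 chr22:30970095-30970273, plus strand), a gene best known for its long nuclear RNA. It had 1.74, 0.941 and 0.968 CPM in Clover and 3.56, 2.63 and 2.62 CPM in Z18trunc, so every Z18trunc library lay above every Clover library. The log2 difference was 1.26 (SE 0.25, edgeR adjusted p = 0.0164), from 39, 18 and 19 counts against 80, 48 and 55. The whole TUG1 gene was at 17.3 ± 1.43 TPM in Clover and 27.2 ± 2.14 TPM in Z18trunc (both SD, n = 3). This difference of 0.63 on log2(TPM + 1) did not pass (limma adjusted p = 0.0773). The locus was not called with TMM scaling (edgeR adjusted p = 0.0917), with opposite-strand scaling (0.207), with DESeq2's own size factors (0.103), or without Clover replicate 2 (0.0772), Clover replicate 3 (0.0874) or Z18trunc replicate 1 (0.1404). Its log2 difference stayed between 1.003 and 1.12 in these 6 settings.

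The called locus with lower RNA in Z18trunc was a MER45C copy of 109 bp in ribosomal DNA on an unlocalized contig of chromosome 22 (hg38 chr22_KI270733v1_random, 173437 to 173545, plus strand), in the span of ribosomal RNA genes and in no exon. It had 0, 11.7 and 27.5 counts in Clover and 0 in every Z18trunc library (edgeR adjusted p = 0.0164), so Clover replicate 1 and the Z18trunc libraries were alike. Only 7.65% of its fragments mapped uniquely, and 8 MER45C copies lie in near-identical ribosomal DNA. Summed over these 8 copies the values were 2.80, 3.82 and 3.31 CPM in Clover and 2.58, 2.41 and 2.72 CPM in Z18trunc, from 44 to 73 counts per library. The sum was lower in every Z18trunc library, with a log2 difference of -0.36 (exact permutation p = 0.1), a smaller difference than at the called copy. RNA5-8SN4, a ribosomal RNA gene whose span holds the called copy, was at 141, 767 and 172 TPM in Clover and 128, 131 and 132 TPM in Z18trunc. Both this gene and the sum were highest in Clover replicate 2. Whether the sum follows the amount of ribosomal RNA in the libraries was not tested. The level of any single copy is uncertain where fragments map to several. The copy was not called without Z18trunc replicate 1, 2 or 3 (edgeR adjusted p = 0.0861, 0.0565 and 0.0868). DESeq2 gave it no adjusted p, and its unadjusted DESeq2 p was 0.110 with aligned-fragment size factors and 0.1001 with its own. With Clover replicate 2 or 3 left out, at 100 counts or on uniquely mapped counts it had too few counts for a test.

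The next 3 loci by p-value did not pass. A Charlie10 copy of 1340 bp that is coding throughout, in ZMYM6 (hg38 chr1:34987583-34988922, minus strand), had 0.712, 0.732 and 0.764 CPM in Clover and 1.56, 1.54 and 2.10 CPM in Z18trunc (log2 1.23, SE 0.30, edgeR adjusted p = 0.0737). A Charlie30a copy in the 3′ UTR of SETD7, a lysine methyltransferase (chr4:139509340-139509538, minus strand), had 1.42, 1.15 and 1.83 CPM in Clover and 3.74, 2.47 and 2.38 CPM in Z18trunc (log2 0.97, SE 0.25, edgeR adjusted p = 0.0904). A MER102a copy in the 3′ UTR of NKD1, an antagonist of Wnt signalling (chr16:50641406-50641569, plus strand), had 1.202, 1.10 and 1.07 CPM in Clover and 2.76, 2.19 and 1.43 CPM in Z18trunc (log2 0.92, SE 0.27, edgeR adjusted p = 0.214). Groups did not overlap at any of the 3 loci. The Charlie10 copy passed where at least 100 counts were required (edgeR adjusted p = 0.0424), and the Charlie30a copy passed on uniquely mapped counts (0.0253).

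The host genes of these loci lay in the same direction without passing. ZMYM6, a zinc finger gene of the MYM type, was at 1.73 ± 0.202 TPM in Clover and 2.59 ± 0.621 TPM in Z18trunc. SETD7 was at 20.9 ± 3.32 and 29.2 ± 1.28 TPM, and NKD1 at 63.4 ± 9.27 and 79.97 ± 7.53 TPM (SD, n = 3 each, limma adjusted p = 0.126, 0.0837 and 0.153).

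The most abundant hAT locus was a MER30 copy with a mismatch of 7.4%, in an exon of PRF1 (chr10:70597749-70597964, minus strand), the gene of the pore-forming protein perforin. All 216 bp are annotated as 3′ UTR and 93 bp also as coding in other transcripts. It had 35.4, 40.8 and 33.2 CPM in Clover and 33.9, 36.8 and 30.4 CPM in Z18trunc (log2 -0.11, SE 0.11, edgeR adjusted p = 0.795). PRF1 itself was at 398 ± 6.24 and 395 ± 15.2 TPM (SD, n = 3 each), and groups overlapped in both measures.

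The other abundant loci held between 7.96 and 17.98 CPM as group means. A Charlie14a copy of 1766 bp in the coding exon of ZBED5 (chr11:10852863-10854628, minus strand) had 14.2, 15.1 and 15.2 CPM in Clover and 15.6, 17.0 and 21.3 CPM in Z18trunc (log2 0.28, SE 0.13, edgeR adjusted p = 0.467). A Charlie4a copy partly in the 3′ UTR of FTSJ1, a tRNA methyltransferase (chrX:48485998-48486462, plus strand), had 18.03, 16.8 and 15.7 CPM in Clover and 13.4, 14.4 and 14.9 CPM in Z18trunc (log2 -0.24, SE 0.12, edgeR adjusted p = 0.512). It was the only one of the 8 most abundant loci with all Z18trunc libraries below all Clover libraries. A MER5A copy in the 3′ UTR of SLC38A1, a glutamine transporter (chr12:46185123-46185283, minus strand), had 8.37, 7.48 and 8.05 CPM in Clover and 10.0, 9.44 and 12.8 CPM in Z18trunc (log2 0.43, SE 0.14, edgeR adjusted p = 0.269). The Charlie14a and MER5A copies had every Z18trunc library above every Clover library.

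Of these 8, 5 overlapped between groups, the PRF1 copy and 4 others. They included a MER102c copy in the 3′ UTR and coding part of OBSL1, a cytoskeletal adaptor (chr2:219561753-219562075, minus strand, 13.2 ± 1.14 and 13.1 ± 1.203 CPM) and a Charlie15b copy in the 3′ UTR of PNMA1 (chr14:73712256-73712562, minus strand, 12.4 ± 0.692 and 13.4 ± 1.78 CPM). An OldhAT1 copy overlapped 79 coding bases of HYOU1, an endoplasmic reticulum chaperone (chr11:119046396-119046589, minus strand, 9.82 ± 1.16 and 9.54 ± 1.26 CPM). A MER117 copy lay in the 3′ UTR of MYEOV (chr11:69296754-69296881, plus strand, 9.19 ± 0.108 and 9.70 ± 1.90 CPM; SD, n = 3 each, Clover then Z18trunc). Per length, the MER30 copy in PRF1 was highest at 162 CPM per kb, then the MER117 copy at 73.8 and the MER5A copy at 58.1, while the long Charlie14a copy was at 9.29 CPM per kb.

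Outside the gene spans of the deposited tables, the 5 most abundant hAT loci did not pass the test. A MER1A copy on chromosome 7 (6753219 to 6753744, plus strand), within an exon of a GENCODE long noncoding RNA, had 4.65, 2.15 and 6.08 CPM in Clover and 4.37, 3.42 and 6.53 CPM in Z18trunc, with only 16.2% uniquely mapped fragments. A MER33 copy in an exon of TBC1D22A-DT, a divergent transcript (chr22:46761856-46762079, minus strand), had 2.11 ± 0.431 and 2.39 ± 0.477 CPM (SD, n = 3 each). A MER1B copy outside all genes (chr5:1039964-1040294, plus strand) had 2.23, 1.41 and 1.58 CPM in Clover and 1.85, 1.81 and 1.86 CPM in Z18trunc. These 3 loci overlapped between groups.

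A Charlie16a copy in an intron of LINC02964 (chr8:125651709-125651909, plus strand) had 1.65, 1.52 and 1.58 CPM in Clover and 1.69, 2.30 and 2.10 CPM in Z18trunc (log2 0.35, SE 0.25, edgeR adjusted p = 0.684). A Charlie2a copy in an exon of ZMPSTE24-DT (chr1:40256208-40257324, minus strand) had 1.51, 0.732 and 1.43 CPM in Clover and 2.14, 1.54 and 1.62 CPM in Z18trunc (log2 0.52, SE 0.28, edgeR adjusted p = 0.548). Neither overlapped between groups.

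RNA of the long coding loci was higher on average in Z18trunc at 7 of the 8 most abundant, with no call at the adjusted level. All 6885 tested TE loci in exons likewise had a median log2 difference above 0 (0.12). The Charlie9 copy in FAM200A had 4.10, 4.39 and 5.17 CPM in Clover and 4.99, 6.15 and 5.81 CPM in Z18trunc. The OldhAT1 copy in ZBED4 (chr22:49885739-49886388, plus strand) had 4.54, 3.76 and 4.79 CPM in Clover and 6.19, 5.98 and 5.29 CPM in Z18trunc. The Charlie11 copy in FAM200C had 3.12, 3.76 and 3.31 CPM in Clover and 4.28, 3.73 and 4.38 CPM in Z18trunc. Of these 3, ZBED4 alone had no overlap between groups.

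The Zaphod2 copy in ZMYM5 had 1.78, 1.73 and 2.29 CPM in Clover and 2.45, 3.35 and 2.76 CPM in Z18trunc, without overlap. The OldhAT1 copy in ZBED6 (chr1:203799078-203799888, plus strand), which lies in an exon shared with ZC3H11A, had 0.979, 0.314 and 0.866 CPM in Clover and 1.07, 1.81 and 1.19 CPM in Z18trunc, also without overlap. The Charlie8 copy in GTF2IRD2B (chr7:75147460-75149381, plus strand) had 1.08 ± 0.0806 CPM in Clover and 1.01 ± 0.341 CPM in Z18trunc (SD, n = 3 each), and a near-identical copy of this gene makes its level uncertain. The edgeR adjusted p-values of these loci, with ZBED5, lay between 0.393 and 0.943, and ZMYM6 had 0.0737.

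**Figure D3:**
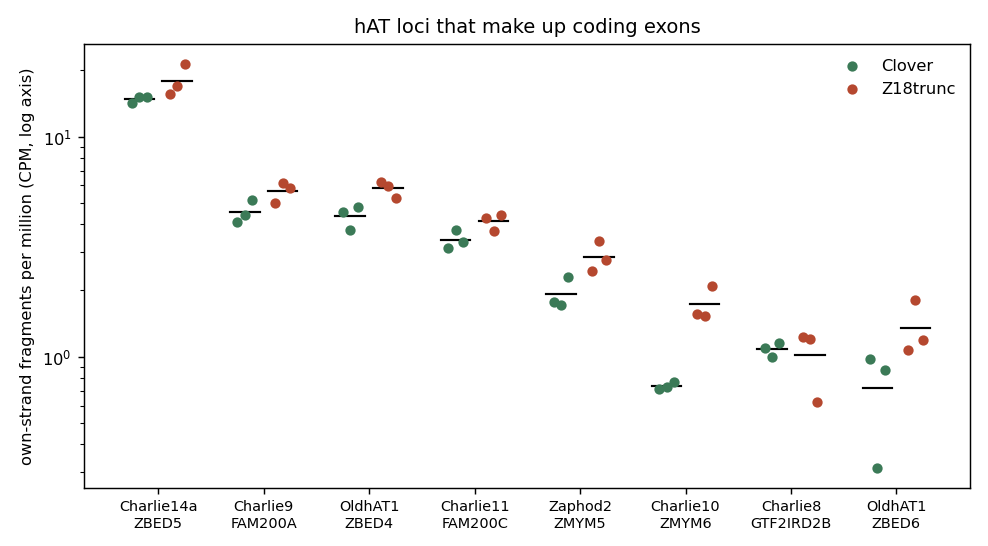
Own-strand fragments per 1000000 (y axis, CPM, log axis) at the 8 most abundant hAT loci of 500 bp or more with at least 80% coding bases (x axis, subfamily and gene). Points are libraries and lines are means (n = 3); the Charlie10 copy in ZMYM6 shows the widest separation, with 0.712 to 0.764 CPM in Clover and 1.54 to 2.10 CPM in Z18trunc.

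Genes derived from hAT transposases were examined as a list of 14, among them ZBED1, which binds promoters of growth genes, ZBED6, a repressor of IGF2, and THAP12. The list overlaps the coding loci above, so both sets of values share fragments. Of 13 tested genes (ZBED9, with 0.314 ± 0.151 and 0.409 ± 0.0611 TPM, was under the limit of 1 TPM), limma called 0 at an adjusted p under 0.05, against 0.015% of 13300 genes. At an unadjusted limma p under 0.05, 7 were higher (53.8%, against 25.6% of all genes) and 1 was lower (7.69%, against 2.9%). The median difference on log2(TPM + 1) was 0.26 in the list and 0.11 over all genes tested. After quantile normalization the medians were 0.09 and -0.01.

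ZBED6 had 1.998, 0.892 and 1.55 TPM in Clover and 2.86, 3.14 and 3.58 TPM in Z18trunc (difference 0.78 on log2(TPM + 1), SE 0.17, limma adjusted p = 0.0773). THAP12 had 27.7, 26.5 and 30.7 TPM in Clover and 35.6, 32.7 and 39.7 TPM in Z18trunc (0.34, SE 0.10, limma adjusted p = 0.0946). EPM2AIP1 had 4.47, 3.05 and 4.06 TPM in Clover and 4.89, 5.89 and 6.09 TPM in Z18trunc (0.45, SE 0.13, limma adjusted p = 0.0958). No group overlapped in these 3 genes. ZBED5 (15.8 ± 1.07 and 20.5 ± 2.83 TPM), ZBED3 (2.70 ± 0.371 and 3.55 ± 0.0920 TPM) and ZBED8 (3.58 ± 0.191 and 4.41 ± 0.334 TPM) likewise did not overlap (SD, n = 3 each). ZBED4, given below, was also higher without overlap. The share of all genes without overlap was not counted, so whether the list stands out by this measure is not known. Of all 13300 genes, 25.6% were higher in Z18trunc at an unadjusted limma p under 0.05.

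GTF2IRD2B had 23.3, 24.2 and 21.0 TPM in Clover and 20.3, 11.8 and 12.8 TPM in Z18trunc (-0.62, SE 0.19, limma adjusted p = 0.103). Every Z18trunc library thus lay below every Clover library. Its near-identical neighbour GTF2IRD2 had 9.42 ± 1.69 and 7.37 ± 0.640 TPM. Reads of both can be divided between them, so their levels are uncertain. FAM200A was at 5.54 ± 0.789 and 6.98 ± 0.808 TPM, FAM200B at 4.28 ± 0.502 and 5.03 ± 0.414 TPM, ZBED4 at 13.9 ± 2.42 and 16.7 ± 0.874 TPM, ZBED1 at 21.96 ± 0.660 and 21.1 ± 1.75 TPM and ZBED2 at 2.73 ± 0.390 and 2.63 ± 0.490 TPM (SD, n = 3 each, Clover then Z18trunc).

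hAT subfamilies, each the sum of all copies of 1 name, gave no call. edgeR called 0 of 117 tested hAT subfamilies at an adjusted p under 0.05, against 1.89% of 898 TE subfamilies. At an unadjusted edgeR p under 0.05, 25 hAT subfamilies were higher (21.4%, against 24.6% of all subfamilies) and 0 were lower (against 0.0%). Of the 117, 101 had a log2 difference above 0, and the median was 0.20, against 0.21 over all subfamilies. Signs were not counted over all subfamilies. With TMM scaling 59 lay above 0 (median 0.0039, against 0.0097 over all subfamilies). The unadjusted split was 3 higher (2.56%, against 5.35% of all subfamilies) and 6 lower (5.13%, against 4.79%). With opposite-strand scaling, whose reference was itself higher in Z18trunc, 37 lay above 0 (median -0.0686, against -0.0685 over all subfamilies). There, 1 was higher (0.855%, against 2.23%) and 10 were lower (8.55%, against 8.24%). DESeq2 called 2 hAT subfamilies with aligned-fragment size factors (1.71%, against 3.67% of all subfamilies) and 0 with its own factors (against 0.223%). On uniquely mapped counts edgeR called 4 (3.54%, against 6.65%).

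MER119 had the smallest p-value. Its 70 loci with own-strand fragments held 2.05, 1.52 and 1.63 CPM in Clover and 2.63, 3.24 and 3.19 CPM in Z18trunc (log2 0.79, SE 0.21, edgeR adjusted p = 0.0561). No single copy dominated, since the largest gave 8.9% of its fragments, and 64.0% of its fragments were intronic. MER119 passed where subfamilies with any count were kept (edgeR adjusted p = 0.0381) and without Z18trunc replicate 1 (0.0216).

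Charlie23a had 3.52, 4.18 and 3.72 CPM in Clover and 5.08, 5.60 and 5.98 CPM in Z18trunc (log2 0.55, SE 0.16, edgeR adjusted p = 0.0648). Here 72.4% of the fragments came from 1 copy in the 3′ UTR of the histone gene H2BC21 (chr1:149884385-149884613, minus strand, log2 0.58, edgeR adjusted p = 0.262). Charlie23a passed without Z18trunc replicate 1 (edgeR adjusted p = 0.0335). MER3 had 25.4 ± 1.96 and 31.9 ± 2.33 CPM (log2 0.33) and MER58B 31.7 ± 2.14 and 39.1 ± 1.80 CPM (log2 0.30), each with an edgeR adjusted p of 0.0848. Both passed on uniquely mapped counts (edgeR adjusted p = 0.0180 and 0.0366) and with DESeq2 and aligned-fragment size factors (DESeq2 adjusted p = 0.0490 for each).

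MER5A, the subfamily with the most RNA, held 124, 116 and 117 CPM in Clover and 138, 139 and 142 CPM in Z18trunc over 1891 loci (log2 0.23, SE 0.08, edgeR adjusted p = 0.0848). MER5B had 73.9 ± 2.98 and 85.9 ± 6.49 CPM, MER20 had 62.7 ± 6.10 and 74.0 ± 3.54 CPM and MER58A had 49.2 ± 3.30 and 59.1 ± 4.58 CPM, all without overlap between groups. On uniquely mapped counts MER5A and MER58A passed as well (edgeR adjusted p = 0.0344 and 0.0492). MER30 had 44.9 ± 4.21 and 45.5 ± 3.69 CPM and OldhAT1 had 40.3 ± 3.70 and 44.6 ± 1.94 CPM, with overlap (SD, n = 3 each). In MER30 the PRF1 copy gave 77.7% of all fragments, so its sum describes 1 locus. MER30 was also the subfamily with the least mismatch among the abundant ones, at a median of 10.7%, against 24.8% for MER5A.

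**Figure D4:**
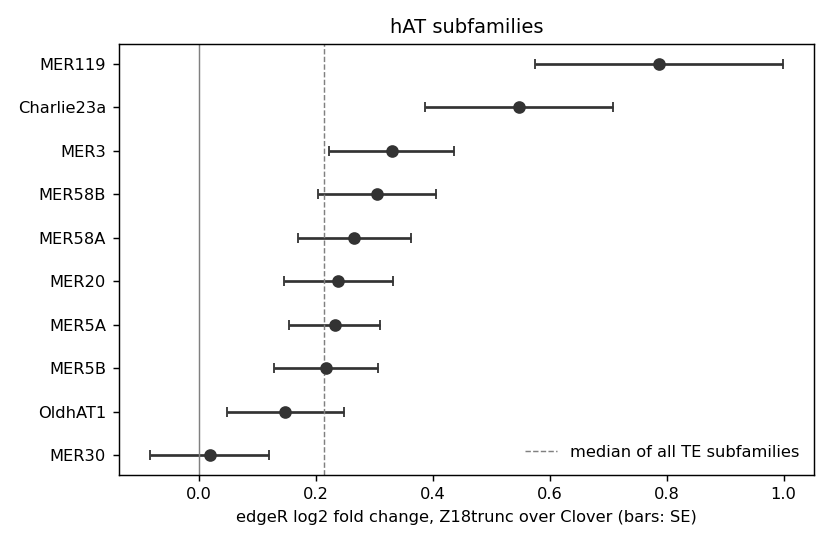
edgeR log2 fold change of Z18trunc over Clover (x axis) for 10 hAT subfamilies, the 5 with the smallest p-values and the 6 most abundant, with 1 in both. Points are estimates and bars SE; MER119 lies farthest to the right at 0.79, MER30 is at 0.02, and the dashed line is the median of all TE subfamilies at 0.21.

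By mismatch, loci under 15% had 150 ± 9.66 CPM in Clover and 161 ± 4.66 CPM in Z18trunc, with overlap, loci from 15% to 25% had 638 ± 23.5 and 740 ± 35.3 CPM, and loci of 25% or more had 524 ± 12.9 and 595 ± 25.02 CPM, both without overlap (SD, n = 3 each). The log2 differences were 0.10, 0.22 and 0.18. The difference between these classes of loci was not tested.

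Exonic hAT loci can be set beside the genes that hold them. Of the tested loci, 452 overlapped exons of exactly 1 tested gene (388 genes). Across these loci, which are not independent replicates and share libraries and reads with their genes, the locus log2 difference and the gene difference on log2(TPM + 1) had a Pearson r of 0.31 and a Spearman rho of 0.34. Both were above 0 at 237 loci and both below 0 at 53. The median was 0.11 for the loci and 0.18 for their genes.

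**Figure D5:**
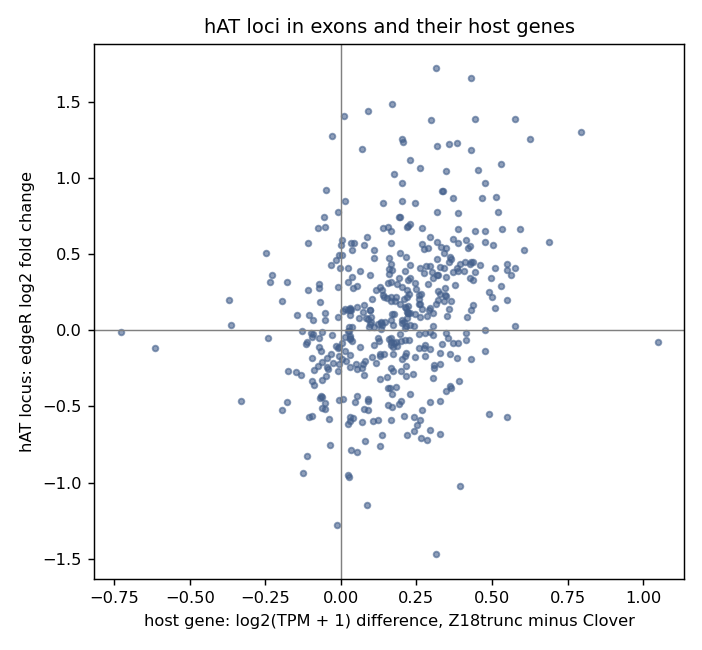
Each point is 1 of 452 hAT loci in exons, with the difference of its host gene on log2(TPM + 1) (x axis, Z18trunc minus Clover) and the edgeR log2 fold change of the locus (y axis). Both values are above 0 at 237 loci and below 0 at 53.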

How the data were processed

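Polyadenylated RNA of SW480 cells was sequenced as stranded paired-end libraries, 3 Clover and 3 Z18trunc. The authors trimmed reads with cutadapt 4.6, mapped them to hg38 and ran SQuIRE. The deposited TE tables give, per locus and strand, uniquely mapped counts, estimated counts in which the authors shared multiply mapped fragments by expectation-maximization, FPKM (not used here) and the mismatch to the consensus. The aligned fragments of each library are deposited as counts. Deposited gene tables give TPM, which were summed by symbol.

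The estimated counts were divided by aligned fragments (CPM). After rounding, loci and subfamilies with 30 or more counts in all 6 libraries together entered edgeR 4.0.16 (quasi-likelihood, R 4.3.3), with aligned fragments as library sizes and Benjamini-Hochberg adjustment over every TE locus or subfamily tested. For genes, limma 3.58.1 was run on log2(TPM + 1) where mean TPM reached 1, a scale that understates changes of low genes. For sums, the exact permutation test was two-sided. Positions came from GENCODE 44 exons and, for introns, also from deposited gene spans, with bedtools 2.31.1. Sequences were read from hg38 (those of the element ends are not reported here), and RefSeq (GRCh38.p14) gave the synonym ZBED8.

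Members and lists were chosen with earlier results of these data known. Named loci were those called, the 5 with the smallest p-values, the 8 most abundant and the 5 most abundant outside deposited gene spans. Named subfamilies were those called, the 5 with the smallest p-values and the 6 most abundant. The ratio of introns to exons and its alternatives, the ratio to TcMar, the sum of ribosomal DNA copies, the coding loci and the classes by mismatch were added after the data were seen.

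On simulated data with known 2-fold and 4-fold changes, the locus fit called 17% and 57% of changed loci (12453 loci, 2.63% of calls false), the subfamily fit 85% and 99% (898 subfamilies) and the gene fit 95% and 100% (13300 genes). Same-group libraries were not copies of each other, as chi-square divided by its degrees of freedom was 1.67 to 2.36 over TE loci. P-values measure the spread between these libraries. Alternatives were TMM, scaling to opposite-strand TE counts outside exons, DESeq2 1.42.0, other count limits, uniquely mapped counts, the opposite strand, a replicate block, another pseudocount, quantile normalization and leaving out each library.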

Additional observations from a re-analysis of the deposited data

Results flagged for a closer look

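Fragments on the strand opposite to the hAT element, which the comparisons of hAT loci did not use except as an alternative, were present at the level of the own strand and were higher in every Z18trunc library than in every Clover library, with a log2 difference of 0.19 between group means (exact two-sided permutation p = 0.1, the smallest that 3 against 3 libraries allow). They were at 1400.5, 1320.0 and 1303 CPM in Clover and 1450.1, 1544 and 1596 CPM in Z18trunc. Of these, 800.1 ± 12.6 CPM in Clover and 865 ± 18.8 CPM in Z18trunc lay in exons read in that direction, 425 ± 36.8 and 533 ± 50.8 CPM in introns, and 74.2 ± 3.33 and 83.8 ± 4.50 CPM outside genes (SD, n = 3 each). On this strand edgeR called 1 of 686 hAT loci, a MER103C copy (0.146%, against 0.0575% of all 12170 TE loci tested), and 7 of 120 hAT subfamilies (5.83%, against 12.6% of all 905 TE subfamilies).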

How the results depend on the processing

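With 3 libraries a group no exact p can fall below 0.1, so for sums the side of the threshold was whether groups overlapped. The own-strand hAT difference (log2 0.19) stayed without overlap on uniquely mapped counts (0.21) and without the 20 most abundant loci (0.22). It also did at loci that overlap no exon on the same strand (0.32), and was 0.16 to 0.22 with 1 library left out. The opposite strand, a different quantity, gave 0.19 without overlap. The replicate block changes only the p-value and not the libraries' values. Scaled to TE counts of both strands the own-strand difference was 0.011, with overlap. The ratio to other TE fragments was -0.0043 to 0.044 and the ratio of introns to exons 0.17 to 0.30 with 1 library left out.

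Against 2 called hAT loci, TMM gave 1 (0.138%, against 0.0562% of all TE loci tested) and opposite-strand scaling 1 (0.138%, against 0.0482%). DESeq2 with aligned-fragment factors gave 1 (0.138%, against 0.128%), the opposite strand 1 (0.146%, against 0.0575%) and DESeq2 with its own factors 0 (against 0.0883%). Keeping any count gave 3 (0.0149%, against 0.00809%), the same 2 and a FordPrefect copy on chromosome 21. A limit of 100 counts gave 2 (0.758%, against 0.942%) and uniquely mapped counts 2 (0.344%, against 0.3%). In each, only the TUG1 copy was also among the 2 above. Leaving out Clover replicate 1 gave 4 (0.638%, against 0.288%). Z18trunc replicate 2 and replicate 3 left out gave 1 each (0.157%, against 0.142%, and 0.166%, against 0.12%). Leaving out any other library gave 0 (against 0.117% to 0.216%). Against 0 called subfamilies, keeping any count gave 1 (0.787%, against 2.43% of all TE subfamilies tested) and uniquely mapped counts 4 (3.54%, against 6.65%). DESeq2 with aligned-fragment factors gave 2 (1.71%, against 3.67%) and the opposite strand 7 (5.83%, against 12.6%). Leaving out Z18trunc replicate 1 gave 3 (2.59%, against 9.28%), and leaving out any other library gave 0 (against 0.342% to 1.95%). hAT-derived genes gave 0 in all settings.

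Deviations of same-numbered libraries had correlations of -0.059 to -0.026, against -0.011 to 0.050 for libraries of different number. TE counts thus gave no sign of pairing by replicate number. The labels do not say whether same-numbered libraries were handled together. With the replicate block the exact p was 0.25 for own-strand fragments (log2 0.19), 1 for the ratio to other TE (0.02) and 0.5 for introns over exons (0.23). The block fits called 2 hAT loci (0.275%, against 0.281% of all TE loci), 0 hAT subfamilies (against 0.78%) and 0 hAT-derived genes.

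Some small differences changed sign. With TMM scaling they were -0.050 (Charlie15b), -0.098 (MER117), -0.022 (MER1A) and -0.11 (MER1B) for loci and -0.18 (MER30) and -0.053 (OldhAT1) for subfamilies. With DESeq2's own factors the same 6 were -0.046, -0.094, -0.027, -0.10, -0.19 and -0.057. With opposite-strand scaling, loci were at -0.021 (Charlie14a), -0.16 (Charlie15b), -0.21 (MER117), -0.14 (MER1A), -0.091 (MER33) and -0.20 (MER1B), and subfamilies at -0.051 (MER5A), -0.069 (MER5B), -0.043 (MER20), -0.018 (MER58A), -0.26 (MER30) and -0.13 (OldhAT1). On uniquely mapped counts MER102c was 0.038, MER33 -0.086 and MER1B -0.11. With 1 library left out, the ranges were -0.083 to 0.052 (MER102c), -0.11 to 0.065 (OldhAT1 locus), -0.091 to 0.18 (MER117), -0.15 to 0.48 (MER1A), -0.063 to 0.29 (MER1B), -0.050 to 0.090 (MER30 subfamily), -0.11 to 0.0039 (ZBED1) and -0.15 to 0.039 (ZBED2). Why calls and signs differed was not tested. Depth limits single loci most, since 727 of 20480 hAT loci could be tested.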
